A study of Mus musculus with 17 samples.

Results

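The 10 genes described here are Nr1d1, Nr1d2, Per1, Per2, Per3, Dbp, Tef, Clock, Cry1 and Cry2, which belong to the circadian clock or to its direct output. They are 10 of the 19752 mouse genes that had a probe set with a single gene symbol on the array, and each of them had 1 such probe set. They were chosen by name as clock genes after Nr1d1 had been seen to differ between the Aire knockout effects of perinates and adults. The knockout comparisons of all 10 genes are therefore given below as descriptions, with no test.

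The RNA came from medullary thymic epithelial cells, which present self-antigens to maturing T cells with the help of the transcriptional regulator Aire. The 17 samples, with 1 array each, comprised 3 samples of KO GFP+, 3 of WT GFP+ and 2 of WT GFP- cells from perinates, and 3 samples each of KO GFP+, WT GFP+ and WT GFP- cells from adults, where KO and WT refer to Aire. All groups were C57BL/6 mice of mixed sex carrying Adig, an Igrp-GFP reporter driven by Aire, so that GFP marks cells in which the Aire promoter is or was recently active. The sorter took CD45- Ly51- cells with much MHC class II and split them on GFP, and KO GFP- cells were not analysed here. Adults were 5 weeks old, and perinates were 3 days old by the sample labels and 0 to 3 days old by the series description. The labels give no hour of collection and do not say whether a sample was 1 animal or a pool, so p-values reflect the spread among these samples alone, and part of it may be technical. Arrays are named below by their group and the number in their title.

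In the circadian clock of mammals, the activators CLOCK and BMAL1 (the product of Arntl) bind E-box elements and switch on the Per and Cry genes, whose proteins then repress CLOCK and BMAL1 in a loop of about a day. A second loop joins to it through the nuclear receptors REV-ERBα (Nr1d1) and REV-ERBβ (Nr1d2), which repress Arntl by competing with the activating ROR receptors for the same elements. The PAR bZIP factors DBP and TEF are clock-driven and pass the rhythm on through D-box elements. Most tissues run such a clock, and the level of these transcripts depends on the hour at which a tissue is taken.

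Values are the authors' RMA intensities on a linear scale, and differences are on the log2 scale. Array medians were 145 to 157, and 13842 genes lay above the 40th percentile of their array (96.2 to 112) on at least 2 arrays and were tested. All 10 clock genes passed this filter, and 9 of them lay above the percentile on all 17 arrays. Per3 did so on 14, with at least 2 arrays in each of the 6 groups. The medullary markers were well expressed, with 10 of 10 above the percentile on all 17 arrays, and so were 4 of 6 cortical epithelium, 4 of 6 fibroblast, 3 of 7 thymocyte and 2 of 7 dendritic cell and macrophage markers, while 0 of 2 measured B cell markers reached it on any array. The thymocyte marker Ptcra reached it on none. The Aire probe set averaged 5272 ± 1047 in perinate KO GFP+ cells, 4773 ± 629 in their WT counterparts (SD, n = 3 each), and 4927 ± 284 and 5097 ± 971 in KO and WT GFP+ cells of adults. The labels leave out which part of Aire was deleted, and these values are therefore no check of the genotype. Perinate KO arrays 2 and 3 stood apart on sex-linked genes: the Y-linked Uty read 19.2 and 16.1 on them, against 229 on perinate KO array 1 and 169 to 366 on the 14 arrays of the other groups.

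Clock factors act through short elements in the promoters of their target genes, and the promoters of Nr1d1, Per1, Cry1 and Per3 are shown. They were picked after the values were seen, because the first 3 varied together within the groups while Per3 did not. Each is the 250 bases before an annotated start, from RefSeq on GRCm38.p6, read 5′ to 3′ on the strand of the gene. They lie at chr11:98775378-98775627 on the minus strand for Nr1d1, at chr11:69098699-69098948 on the plus strand for Per1, at chr10:85185055-85185304 on the minus strand for Cry1 and at chr4:151044666-151044915 on the minus strand for Per3. Capitals mark, on either strand, the E-box CACGTG, the E′-box CACGTT or AACGTG, the D-box TTATGTAA and AGGTCA or TGACCT, the core of the element bound by REV-ERB and ROR receptors.
Nr1d1: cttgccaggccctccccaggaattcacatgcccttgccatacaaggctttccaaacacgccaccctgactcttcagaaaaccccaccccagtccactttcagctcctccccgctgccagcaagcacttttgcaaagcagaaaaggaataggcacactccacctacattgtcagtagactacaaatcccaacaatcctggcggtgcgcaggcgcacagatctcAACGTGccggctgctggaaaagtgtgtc
Per1: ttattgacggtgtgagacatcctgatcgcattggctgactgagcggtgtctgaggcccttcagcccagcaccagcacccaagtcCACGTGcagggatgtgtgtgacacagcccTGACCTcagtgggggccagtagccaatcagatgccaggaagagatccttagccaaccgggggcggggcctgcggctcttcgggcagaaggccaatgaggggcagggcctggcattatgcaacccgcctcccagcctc
Cry1: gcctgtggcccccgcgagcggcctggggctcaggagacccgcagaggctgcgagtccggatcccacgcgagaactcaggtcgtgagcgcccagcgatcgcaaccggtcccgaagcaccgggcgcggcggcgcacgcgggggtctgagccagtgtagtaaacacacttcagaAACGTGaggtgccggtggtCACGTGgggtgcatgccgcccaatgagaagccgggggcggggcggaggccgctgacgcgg
Per3: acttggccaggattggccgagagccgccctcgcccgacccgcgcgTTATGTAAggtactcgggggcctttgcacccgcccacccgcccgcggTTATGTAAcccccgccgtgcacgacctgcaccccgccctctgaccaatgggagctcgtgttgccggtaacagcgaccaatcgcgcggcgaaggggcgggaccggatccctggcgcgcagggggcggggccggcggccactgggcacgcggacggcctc

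Nr1d1 held an E′-box 28 bases before its start, and Cry1 held an E′-box at 79 and an E-box at 60 bases. Per1 held an E-box at 166 bases and the receptor core at 137 bases in the window shown. Its other window (chr11:69099902-69100151) held none of the motifs. Per3 held D-boxes at 205 and 158 bases. Of the 9 clock genes with an entry (Per2 had none), an E-box stood before Per1, Tef and Cry1, in 4 of 13 windows, and in 6.02% of 32851 mouse windows of this length. An E′-box stood before Nr1d1, Cry1 and Cry2, in 3 of 13 windows, and in 3.85% of all windows. The receptor core stood before Nr1d2, Per1 and Clock, in 3 of 13 windows, and in 14.0% of all, while the D-box of Per3 was found in 0.819% of all. Of a wider list of 21 other clock genes, described below, 14 had an entry, with 19 windows. An E-box stood before 2 of these genes, and an E′-box, a D-box and the receptor core before 1 each. Nr1d2, which varied with Nr1d1, Per1 and Cry1 within the groups, held no E-box or E′-box. Tef, which did not vary with them, held an E-box in both of its windows. Whether the motifs bear on the shared variation was not tested. Some genes had several windows, the marked motifs did not overlap each other, and a match of letters is a description, not a shown binding site.

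Nr1d1 encodes a heme-binding repressor and had the widest range of the 10 genes over the arrays, from 216 to 1878, an 8.68-fold range. It read 392, 231 and 216 on the perinate KO GFP+ arrays, 950.0, 831 and 779 on the perinate WT GFP+ arrays and 963 and 477 on the perinate WT GFP- arrays. It read 1239, 878 and 688 on the adult KO GFP+ arrays, 875, 561 and 629 on the adult WT GFP+ arrays and 1878, 1259 and 908 on the adult WT GFP- arrays. All 3 perinate KO arrays lay below the other 14, and adult WT GFP- cells had the highest mean. In the order of means, the adult GFP- cells came first, then adult KO cells, perinate WT GFP+ cells, perinate GFP- cells and adult WT GFP+ cells, each overlapping its neighbour. The last step, to perinate KO cells, left a gap. The perinate KO values belong to the contrast on which Nr1d1 was chosen.

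The knockout effect of Nr1d1 was -1.66 ± 0.30 (log2, SE) in perinates, a 3.15-fold lower level in KO cells with groups that did not overlap, and 0.43 ± 0.30 in adults, where the groups overlapped. The perinate effect minus the adult effect was -2.08 ± 0.43. With perinate KO array 1, the one with a Uty level like the other groups, as the only perinate KO array, the perinate effect was -1.12 and the difference of the effects -1.54. Perinate KO cells lay 3.37-fold below adult KO cells (-1.75 ± 0.30), a difference that uses the arrays on which Nr1d1 was chosen. The probe set of Nr1d1 lies in a gene (chr11:98767932-98775377, GRCm38.p6) that overlaps the end of Thra (chr11:98740776-98769006), the thyroid hormone receptor α gene on the opposite strand. Thra averaged 118 ± 6.45 in perinate KO GFP+ cells, 156 ± 11.1 in WT GFP+ and 525 ± 133 in WT GFP- cells of that age (SD). In adults it averaged 118 ± 7.92 in KO GFP+, 132 ± 13.6 in WT GFP+ and 172 ± 30.5 in WT GFP- cells, with perinate GFP- cells, not adult GFP- cells as for Nr1d1, the highest group. As for Nr1d1, the perinate KO values of Thra, 112 to 125, lay below the perinate WT GFP+ values, 143 to 162, without overlap. Whether the probe sets share signal was not tested.

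Between the sorts, Nr1d1 had its own values at each age. In WT adults, GFP+ cells lay below GFP- cells without overlap (-0.93 ± 0.30), and in WT perinates the groups overlapped (0.33 ± 0.34), so that the sort difference was 1.26 ± 0.45 higher in perinates. The WT GFP+ arrays of these comparisons took part in the choice of Nr1d1, and they are given as descriptions, with no test. Perinate WT GFP- cells, whose comparison with adults uses no array of the choice, had less Nr1d1 than adult ones (-0.93 ± 0.34, adjusted p = 0.0330, limma), but the ranges overlapped, and the call was made in 7 of 13 alternatives. It was lost without adult WT GFP- array 6 or 7 or perinate WT GFP- array 2 (adjusted p = 0.136, 0.0588 and 0.418), without both adult WT arrays numbered 6 (0.127), with array weights (0.0602) and with only the compared groups fitted (0.0665).

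Nr1d2, the paralog of Nr1d1, was lower in GFP+ than in GFP- cells of WT adults. It read 423, 319 and 317 on the perinate KO GFP+ arrays, 509, 435 and 396 on the perinate WT GFP+ arrays and 595 and 520.3 on the perinate WT GFP- arrays. Among adults it read 397, 403 and 409.9 on KO GFP+, 418, 325 and 268 on WT GFP+ and 604, 519 and 445 on WT GFP- arrays. In adults all GFP- arrays lay above all GFP+ arrays, and the difference in WT adults was -0.65 ± 0.16 (adjusted p = 0.00357), which held in 15 of 15 alternatives. The 3 adult KO arrays lay within 1.03-fold of each other, while adult WT GFP+ arrays spread 1.56-fold. The knockout difference of Nr1d2 was -0.35 ± 0.16 in perinates and 0.28 ± 0.16 in adults, with overlapping groups in both.

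**Figure D1:**
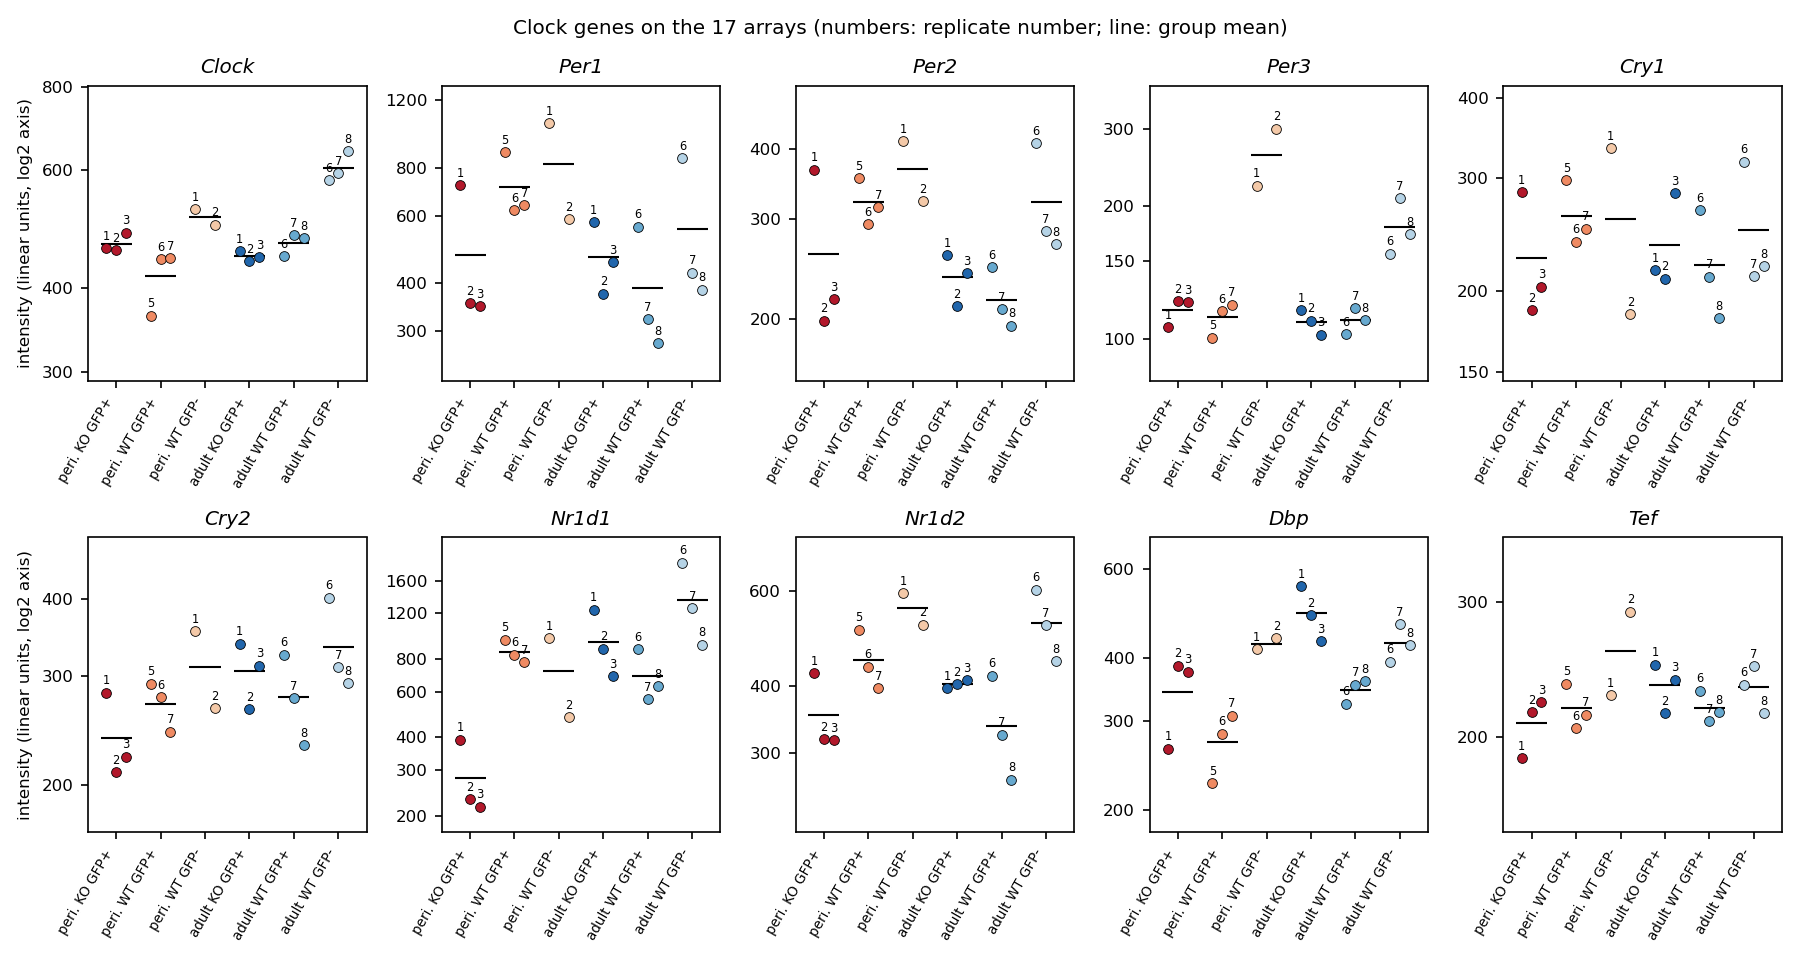
Intensity of each clock gene on each of the 17 arrays, on a log2 axis of linear RMA intensity, by group; numbers are the replicate numbers of the titles and lines the group means. Nr1d1 on the 3 perinate KO arrays (216 to 392) lies below the other 14 arrays, Per3 on all 5 GFP- arrays (156 to 299.9) lies above all 12 GFP+ arrays, and the arrays numbered 6 and 1 top most groups for Per1.

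Per1, which is both a clock repressor and a gene known to respond within minutes to signals from outside the cell, had the widest spread within groups. It read 721, 354 and 349 on the perinate KO GFP+ arrays, 879, 619 and 639 on the perinate WT GFP+ arrays and 1044 and 588 on the perinate WT GFP- arrays. Adult arrays read 577, 375 and 454 for KO GFP+, 562, 322 and 279 for WT GFP+ and 848, 426 and 385 for WT GFP- cells. The highest array of each group was array 1, 5 or 6, and each group overlapped its neighbour in the order of means. The largest tested difference was between perinate and adult WT GFP+ cells, whose values did not overlap (0.93 ± 0.34), yet it missed the threshold (adjusted p = 0.0612). It passed without adult WT GFP+ array 6 (adjusted p = 0.0258). Between the ages in WT GFP- cells the difference was 0.60 ± 0.38 (adjusted p = 0.215), and passed without adult WT GFP- array 6 (0.0492). The sort difference of Per1 was -0.16 ± 0.38 in perinates (adjusted p = 0.771) and -0.49 ± 0.34 in adults (adjusted p = 0.259).

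Per2, the partner repressor, read 367, 199 and 217 on the perinate KO GFP+ arrays, 355, 294 and 315 on the perinate WT GFP+ arrays and 413 and 323 on the perinate WT GFP- arrays. Adult arrays read 259, 211 and 241 for KO GFP+, 247, 208 and 195 for WT GFP+ and 409, 286 and 271 for WT GFP- cells. Adult WT GFP+ cells lay below adult WT GFP- cells without overlap (-0.56 ± 0.20, adjusted p = 0.0340). This call was lost without adult WT GFP- array 6, GFP+ array 7 or GFP+ array 8 (adjusted p = 0.172, 0.0851 and 0.110). Perinate WT GFP+ cells lay above adult ones without overlap (0.57 ± 0.20) and missed the threshold (adjusted p = 0.0517). Of the perinate KO arrays, array 1 was above the perinate WT GFP+ range and arrays 2 and 3 were below it.

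Per3, which is dispensable for the core loop in mice, was low in all GFP+ groups. It read 106, 122 and 121 on the perinate KO GFP+ arrays, 100.5, 116 and 119.6 on the perinate WT GFP+ arrays and 223 and 299.9 on the perinate WT GFP- arrays. Adult arrays read 116, 109.9 and 102 for KO GFP+, 103, 117 and 110.2 for WT GFP+ and 156, 209 and 173 for WT GFP- cells. All 5 GFP- arrays lay above all 12 GFP+ arrays, and the 12 GFP+ values, 100 to 122, were near the 40th percentile of the arrays. Per3 was 2.32-fold lower in GFP+ cells of WT perinates (-1.21 ± 0.14, adjusted p = 3.54e-06) and 1.62-fold lower in those of WT adults (-0.69 ± 0.13, adjusted p = 0.000347). Within GFP- cells Per3 was higher in perinates than in adults (0.54 ± 0.14, adjusted p = 0.00563), a call lost without perinate WT GFP- array 2 (adjusted p = 0.131) or with only the compared groups fitted (0.0510). The sort difference changed with age by -0.52 ± 0.19, which missed the threshold (adjusted p = 0.0701), and passed it without adult WT GFP- array 7 (0.0326) or perinate WT GFP- array 1 (0.0185).

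The cryptochromes Cry1 and Cry2, which join the PER proteins in repressing CLOCK and BMAL1, passed no test in the 6 comparisons. Cry1 read 285, 187 and 203 on the perinate KO GFP+ arrays, 298, 239 and 250.1 on the perinate WT GFP+ arrays and 333 and 184 on the perinate WT GFP- arrays, and 182 to 318 in adults. Cry2 read 282, 210.2 and 222 on the perinate KO GFP+ arrays, 292, 277 and 244 on the perinate WT GFP+ arrays and 354 and 266 on the perinate WT GFP- arrays, and 232 to 402 in adults. For both genes every group overlapped its neighbour in the order of means. Among the 6 tested comparisons the largest difference of Cry1 was 0.27 ± 0.23, between perinate and adult WT GFP+ cells (adjusted p = 0.423). That of Cry2 was -0.36 ± 0.16, between perinate and adult KO cells (adjusted p = 0.114).

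Clock, the activating bHLH-PAS subunit, had the smallest spread within groups of the 10 genes and was lower in GFP+ cells at both ages. It read 459, 456 and 484 on the perinate KO GFP+ arrays, 364, 442 and 444 on the perinate WT GFP+ arrays and 525 and 498 on the perinate WT GFP- arrays. Adult arrays read 454, 439 and 446 for KO GFP+, 447, 480.1 and 475 for WT GFP+ and 579.7, 594 and 641 for WT GFP- cells. Adult GFP- cells were highest and perinate GFP- cells second, both apart from the GFP+ cells. The sort difference was -0.30 ± 0.10 in WT perinates (adjusted p = 0.0267) and -0.37 ± 0.09 in WT adults (adjusted p = 0.00374). The adult call held in 15 of 15 alternatives. The perinate call was made in 7 of 12 alternatives. It was lost without perinate WT GFP- array 1 or 2 or GFP+ array 5 (adjusted p = 0.132, 0.0547 and 0.119), with array weights (0.0778) and with only the compared groups fitted (0.179).

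Dbp, a D-box activator whose transcript cycles widely in many tissues, was the clock gene with the largest knockout difference in adults. It read 265, 387 and 376 on the perinate KO GFP+ arrays, 227, 284 and 308 on the perinate WT GFP+ arrays and 416 and 439 on the perinate WT GFP- arrays. Adult arrays read 554, 487 and 433 for KO GFP+, 325, 355 and 360.3 for WT GFP+ and 394, 467 and 425 for WT GFP- cells. Adult KO GFP+ cells lay above adult WT GFP+ cells without overlap, by 0.50 ± 0.15, and the groups overlapped in perinates, at 0.32 ± 0.15, neither being tested here. Dbp was lower in GFP+ cells of WT perinates (-0.66 ± 0.16, adjusted p = 0.00361), a call that held in 12 of 12 alternatives, while the adult sort difference was -0.30 ± 0.15 (adjusted p = 0.103). Dbp was also lower in perinate than in adult KO cells (-0.53 ± 0.15, adjusted p = 0.0137), a call lost without adult KO array 1 (0.0604) or perinate KO array 1 (0.0821).

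Tef, a related PAR bZIP factor, differed little, ranging 1.56-fold from 188 to 292 over the 17 arrays. Its group means lay between 208 ± 18.2 in perinate KO GFP+ cells and 259 ± 46.0 in perinate WT GFP- cells (SD, n = 3 and 2), and each group overlapped its neighbour in the order of means. Tef passed none of the 6 tests, its largest difference being -0.24 ± 0.12 between the sorts in perinates (adjusted p = 0.132). Without perinate WT GFP- array 1 that difference passed (adjusted p = 0.0280).

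Between the sorts of WT adults, 4 of the 9 clock genes other than Nr1d1 passed the test, all lower in GFP+ cells: Nr1d2, Per2, Per3 and Clock. All 10 log2 differences were negative, that of Nr1d1 as a description, and so were those of 6680 of the 13842 genes tested. Of all 13842 genes tested 44.9% passed in this comparison, and 20.1% were lower. The median of the 10 genes, with Nr1d1 included, was -0.43, against 0.02 for all genes tested. Per2 was lost without adult WT GFP- array 6, GFP+ array 7, GFP+ array 8 or both arrays numbered 6, which left 3. In whole sorted samples, fewer cells of a type and less RNA per cell cannot be told apart. Summed markers moved with the sort: the 7 dendritic cell and macrophage markers came to 6454 to 6503 in GFP+ and 4895 to 5850.5 in GFP- cells of adults, and the 6 cortical epithelium markers to 7375 to 8299 and 4398 to 4773. Of the first list 4 of 6 tested genes were higher and 0 lower in GFP+ cells, with Itgax, a dendritic cell marker, above the 40th percentile on no array. Of the cortical genes 2 were higher and 1 lower (median 0.13). Their part in the differences of the clock genes was not tested.

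In WT perinates 3 of the 9 clock genes other than Nr1d1 passed, all lower in GFP+ cells: Per3, Dbp and Clock. Of all genes 43.5% passed, and 20.5% were lower. The median of the 10 genes, with Nr1d1 included as a description, was -0.21, against 0.00 for all genes. Of the 10 differences 8 were negative, and so were 6918 of those of the 13842 genes tested. Here the 7 dendritic cell and macrophage markers summed to 4012 to 4627 in GFP+ and 757 to 967 in GFP- cells, with 4 of 6 tested genes higher and 0 lower. The 6 cortical markers summed to 4583 to 6797 in GFP+ and 6379 to 6978 in GFP- cells, but 5 of the 6 were lower and 1 higher in GFP+ cells, with a median of -1.56. The GFP+ sums of the dendritic cell and macrophage markers rest mostly on Lyz2 here too. The part of both marker lists was not tested. The test of a change of the sort difference with age called 0 of the 9 genes other than Nr1d1 with limma, against 20.0% of all genes. At an unadjusted p under 0.05 it called 1 of them, Per3, against 32.5% of all genes.

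**Figure D2:**
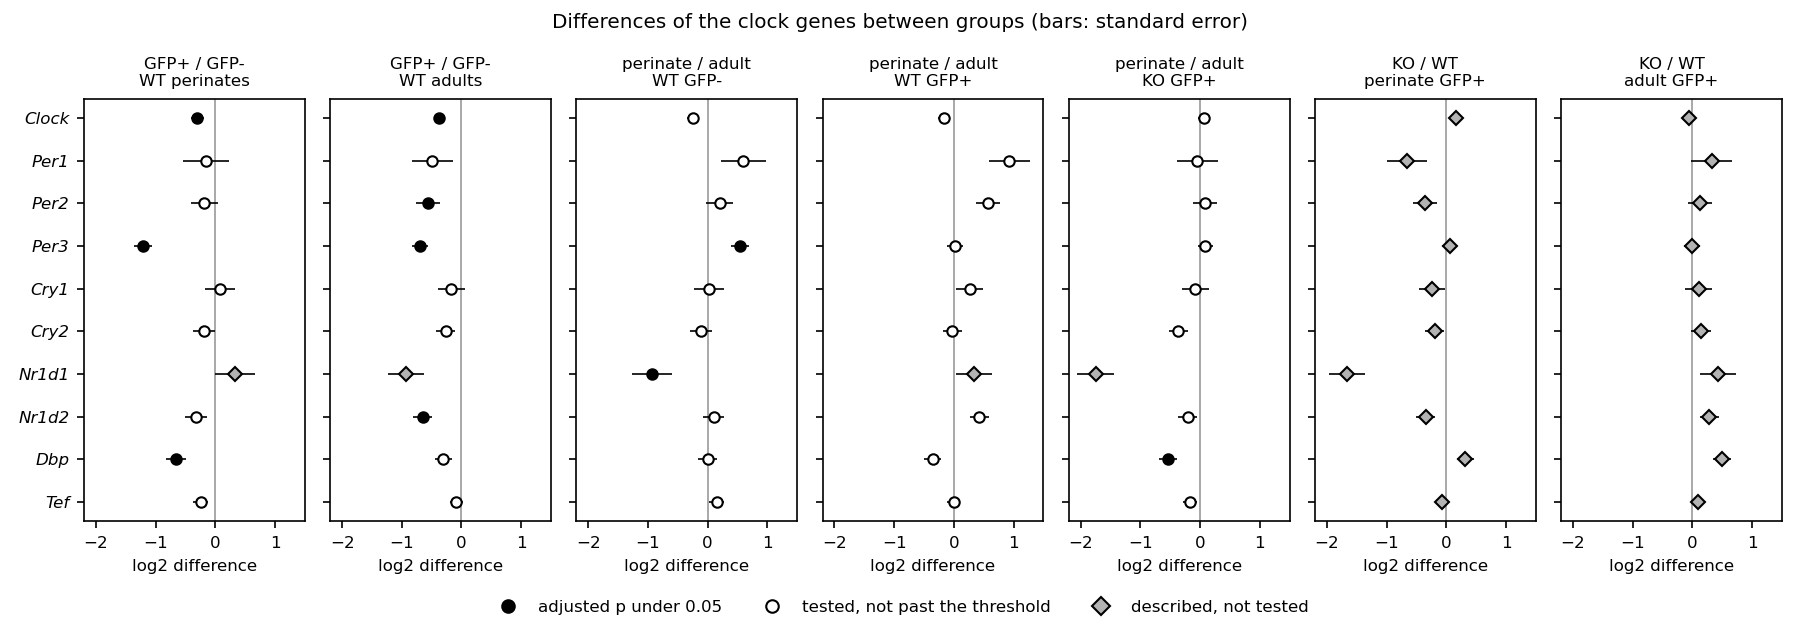
Log2 differences of the 10 clock genes (points, with standard errors) in 7 comparisons; filled circles passed an adjusted p of 0.05, open circles were tested and did not pass, and grey diamonds were not tested. Most of the genes lie left of 0 in both sort comparisons, and Per3 and Clock passed in both. Nr1d1 has the lowest values of the knockout comparison in perinates (-1.66) and of the age comparison in KO cells (-1.75).

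Between the ages few clock genes passed. In WT GFP- cells 2 of 10 did, Per3 higher and Nr1d1 lower in perinates, against 46.4% of all genes. Markers of other cells moved with age in these cells too: of 6 tested genes each, 4 cortical markers were higher and 1 lower in perinates (median 1.22), and 0 dendritic cell and macrophage markers were higher and 5 lower (sums of 757 to 967 in perinates and 4895 to 5850.5 in adults), while 6 of 10 medullary markers were lower. The adult sums of the dendritic cell and macrophage markers rest mostly on Lyz2. The part of all these markers in the age differences was not tested. In WT GFP+ cells 0 of the 9 genes other than Nr1d1 passed with limma, against 22.2% of all genes, while 4 of the 9 had an unadjusted p under 0.05, against 35.9% of all genes. These were Per1, Per2 and Nr1d2, at 0.93, 0.57 and 0.42, and Dbp, at -0.36 (adjusted p = 0.0612, 0.0517, 0.0690 and 0.0921). Per1, Per2 and Nr1d2 passed after quantile normalization, with array weights or without both adult WT arrays numbered 6, so the count of 0 depends on these settings. Without adult WT GFP+ array 6 alone, Per1 and Nr1d2 passed (adjusted p = 0.0258 and 0.0193). In KO GFP+ cells 1 of 9 passed, Dbp, lower in perinates, against 26.0% of all genes. Without adult KO array 1 or perinate KO array 1 the count was 0. Of the 15 immediate-early genes 0 were higher and 1 lower in perinate than in adult KO cells, and all 15 differences were negative (median -0.39), and their part was not tested.

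In the knockout comparisons, which the choice of the genes used, most differences of the clock genes were negative in perinates and positive in adults. In perinates 7 of the 10 differences were negative and 3 positive, with a median of -0.22 (0.09 for all genes), and the groups of 2 genes did not overlap, Nr1d1 lower and Clock higher in KO cells. In adults 8 were positive and 2 negative, with a median of 0.14 (0.06 for all genes), and the groups of 1 gene, Dbp, did not overlap. Of all 13842 genes tested, 5334 had negative differences in perinates and 8154 had positive ones in adults. Groups did not overlap for 43.1% of all genes in perinates and for 40.3% in adults. The perinate minus adult difference of the effects was -0.98 ± 0.48 for Per1, -0.63 ± 0.23 for Nr1d2, -0.49 ± 0.29 for Per2 and 0.23 ± 0.13 for Clock, against -2.08 ± 0.43 for Nr1d1. With perinate KO array 1, the highest perinate KO array for Per1, Per2 and Nr1d2, as the only perinate KO array, the perinate knockout difference was 0.04 for Per1, 0.20 for Per2, -0.07 for Nr1d2 and -0.03 for Dbp, in place of -0.66, -0.35, -0.35 and 0.32. Those of Cry1 and Cry2 were then 0.13 and 0.06, in place of -0.24 and -0.19, and that of Tef was -0.21, in place of -0.07. Other lists differed along with the clock genes. Of the 15 immediate-early genes 14 had negative knockout differences in perinates (median -0.30) and 10 had positive ones in adults (median 0.13), and the perinate effect minus the adult effect was negative for 14 (median -0.61). Of 6 dendritic cell and macrophage markers, 6 had negative differences in perinates and 5 in adults. Of 6 fibroblast markers, 3 had positive and 3 negative differences in perinates (median -0.15), and 4 positive and 2 negative in adults (median 0.26). The part of these lists in the knockout differences was not tested. The knockout difference of Clock in perinates was 0.17, and 0.07 without perinate WT GFP+ array 5.

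Within the groups, 6 of the clock genes varied together. The spread of log2 intensity around the group means was 0.50 for Per1 and 0.44 for Nr1d1, at the percentiles 99.1 and 98.4 of all genes tested, whose median was 0.16. It was 0.32 for Cry1, 0.28 for Per2, 0.22 for Cry2 and 0.21 for Nr1d2, and 0.09 for Clock, at the percentile 3.79. Per1, Per2, Cry1, Cry2, Nr1d1 and Nr1d2, grouped after their values were seen, correlated positively in 15 of 15 pairs of deviations from the group means over the 17 arrays (r = 0.68 to 0.95). Clock, Per3, Dbp and Tef did not join them: 0 of 24 pairs across the sets were positive (-0.86 to -0.03). Per3 and Dbp ran opposite to the 6 genes, at -0.86 to -0.38. All pairs share the same arrays and the same normalization, so these values describe the 17 arrays.

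The same arrays were high for most of the 6 genes. The array highest for Per1 was also the highest for Nr1d1, Per2 and Cry2 in 6 of 6 groups, and for Nr1d2 and Cry1 in 5. For Tef it was the highest in 3 groups, for Clock in 2 and for Per3 and Dbp in 1. The 6 genes were grouped because they varied together on these arrays, so their shared highest arrays are no further support. The array highest for Per1 was array 1 of the perinate KO, perinate GFP- and adult KO groups. It was array 5 of the perinate WT GFP+ group and array 6 of both adult WT groups. Within a group, Per1 differed between the highest and lowest array by 1.42-fold to 2.21-fold and Nr1d1 by 1.22-fold to 2.07-fold. For Nr1d1, the highest over the lowest array of adult WT GFP- cells, 2.07-fold, exceeded the 1.91-fold difference between the adult sorts. Array 6 was the highest for Nr1d1 in both adult WT sorts, and the values of the sorts did not overlap.

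A list of 15 immediate-early genes, such as Fos, Egr1 and Ier2, which cells induce within minutes of a stimulus, was high on many of the same arrays. The array highest for Per1 had the highest mean of this list in 5 of 6 groups, the exception being perinate WT GFP+ cells, where it was array 6. Deviations of the list mean correlated with those of Per1 at r = 0.89, of Cry2 at 0.89, of Per2 at 0.86, of Nr1d1 at 0.80, of Cry1 at 0.79 and of Nr1d2 at 0.78, and with those of Per3 and Dbp at -0.69 and -0.63 (17 arrays). The summed intensity of the 15 genes ran 15906 to 31963 in perinate KO GFP+, 22109 to 30713 in perinate WT GFP+ and 32320.5 to 51066 in perinate WT GFP- cells. In adults it ran 25953 to 34146 in KO GFP+, 19238 to 34603 in WT GFP+ and 27883 to 41788 in WT GFP- cells. On perinate KO array 1 the list lay 0.71 above its group mean on the log2 scale, and on arrays 2 and 3 it lay 0.38 and 0.33 below. Of the 15 genes 0 were higher and 4 lower in GFP+ than in GFP- cells of perinates, and 0 higher and 3 lower in those of adults, against 20.5% and 20.1% of all genes lower. The thymocyte markers summed to 1828 on GFP+ and 1704 on GFP- array 6 of WT adults, the arrays highest for Per1, against 963 and 1179 on the other GFP+ and 879.9 and 955 on the other GFP- arrays. On perinate KO array 1, also highest for Per1, they summed to 885, against 1146 and 1206 on arrays 2 and 3. The part of both lists in the differences of the clock genes was not tested.

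**Figure D3:**
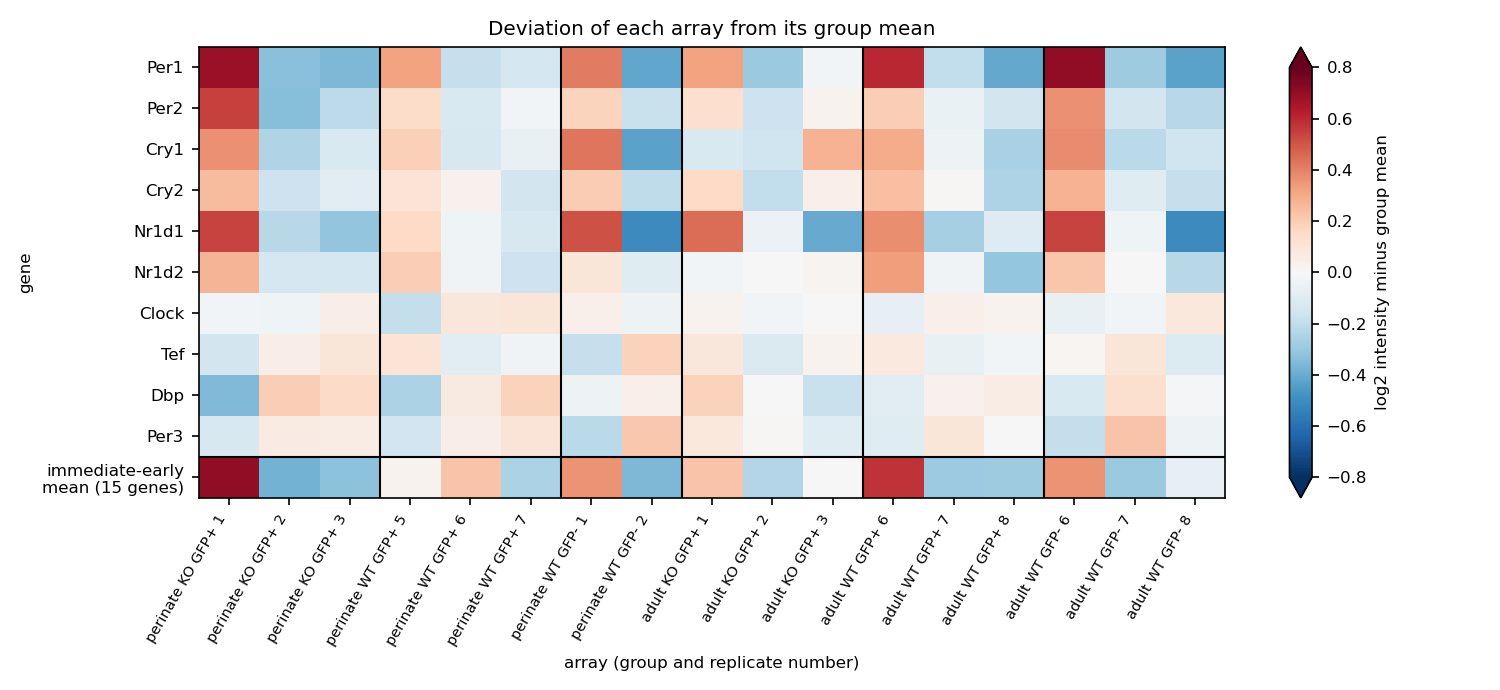
Log2 intensity of each clock gene minus its group mean (colour, red above and blue below) on the 17 arrays, with the mean of 15 immediate-early genes in the bottom row; black lines separate the groups. The upper 6 genes are red together on perinate KO array 1, perinate GFP- array 1 and both adult WT arrays numbered 6, while Per3 is blue on those arrays.

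The pattern of Nr1d1 over the 17 arrays was compared with that of the other 13841 genes tested by Pearson's correlation of log2 intensity. The closest was Rora (r = 0.92, rho = 0.88), which encodes the activating ROR receptor that binds the same elements as REV-ERBα. The next were the clock-controlled ubiquitin protease Usp2 (r = 0.86, rho = 0.76), Rabgef1 (r = 0.85, rho = 0.86), the chitinase-like Chil4 (r = 0.83, rho = 0.77) and Rhou, Fetub, Lcn2, Hbegf, Bpifa1 and Plk3, at r = 0.81 to 0.82. Of the clock genes, Cry2 came nearest at rank 11 (r = 0.81, rho = 0.77), followed by Nr1d2 at rank 626 (r = 0.62, rho = 0.61), and Per1 stood at rank 1972 (r = 0.44, rho = 0.45). Around the group means the order was different, with Per1 at rank 8 (r = 0.89), Rora at rank 70 (r = 0.82) and Usp2 at rank 1078 (r = 0.57). The points are arrays of 6 groups, so that group means and within-group variation both enter the first set of values.

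Rora, by intensity, averaged 253 ± 42.1 in perinate KO GFP+, 412 ± 99.2 in perinate WT GFP+ and 342 ± 81.6 in perinate WT GFP- cells. In adults it averaged 460.2 ± 40.7 in KO GFP+, 433 ± 45.8 in WT GFP+ and 625 ± 74.1 in WT GFP- cells (SD). Like Nr1d1, Rora was lowest in perinate KO and highest in adult WT GFP- cells. Both Rora and Usp2 were picked for their likeness to Nr1d1 on these arrays, so their differences are given as descriptions. The difference between perinate and adult WT GFP- cells was -0.88 ± 0.19 for Rora and -0.78 ± 0.16 for Usp2, and that between GFP+ and GFP- cells was 0.26 ± 0.19 and 0.13 ± 0.16 in WT perinates and -0.53 ± 0.17 and -0.52 ± 0.14 in WT adults.

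**Figure D4:**
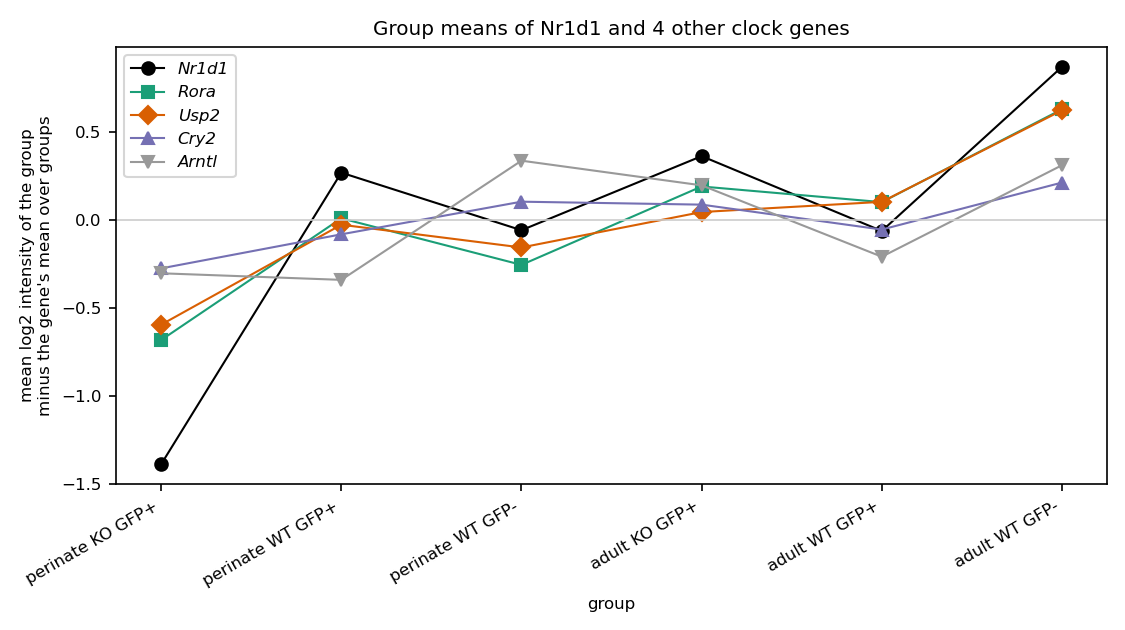
Mean log2 intensity of Nr1d1, Rora, Usp2, Cry2 and Arntl in each of the 6 groups, minus the gene's mean over the groups. Nr1d1, Rora, Usp2 and Cry2 are highest in adult WT GFP- cells, and the same 4 are lowest in perinate KO GFP+ cells, while Arntl is high in both GFP- groups and low in both perinate GFP+ groups.

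A wider list of 21 clock genes beyond these 10 had 18 measured and 16 tested, among them Rora and Usp2. Since Rora and Usp2 stood out above by their likeness to Nr1d1 on these arrays, their share in the counts of this list is a description. In the adult sort comparison 2 were higher and 5 lower in GFP+ cells, against 44.9% of all genes called. Lower were Fbxl21, a ligase subunit acting on cryptochromes (-0.54), Rora (-0.53), the partner of Clock, Arntl (-0.52), Usp2 (-0.52) and the casein kinase Csnk1e (-0.46, adjusted p = 0.00314), and higher were Tipin (0.85, adjusted p = 0.00620) and Nono (0.37). Csnk1e and Nono lay outside the 5 largest and were named after their values were seen. In perinates 0 were higher and 2 lower, Arntl (-0.68 ± 0.12, adjusted p = 0.000238) and Csnk1e (-0.79 ± 0.13, adjusted p = 8.05e-05), against 43.5% of all genes called. Per3 and Clock of the 10 genes, and Arntl and Csnk1e of this list, were thus lower in GFP+ cells of both ages. The perinate call of Clock was made in 7 of 12 alternatives. Arntl averaged 227 ± 21.8 in GFP+ and 362 ± 14.0 in GFP- cells of WT perinates, and 248 ± 15.4 in GFP+ and 357 ± 34.9 in GFP- cells of WT adults. The sort difference changed with age in 3 of the 16 genes, against 20.0% of all genes. These were Tipin (-1.02) and, as descriptions, Rora (0.79) and Usp2 (0.65).

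Several of the other clock genes differed between the ages. In WT GFP- cells 6 of 16 were higher and 5 lower in perinates, against 46.4% of all genes called, led by the repressor Bhlhe41 (-1.60 ± 0.29, adjusted p = 0.000243), Tipin (1.46 ± 0.25) and Bhlhe40 (1.44 ± 0.44). In WT GFP+ cells 3 were higher and 3 lower, against 22.2%, led by Bhlhe41 (-1.70 ± 0.26, adjusted p = 0.000275) and Bhlhe40 (1.30 ± 0.40, adjusted p = 0.0267). In KO GFP+ cells 2 were higher and 7 lower, against 26.0%. They were led by Rora (-0.87 ± 0.17, a description), Ciart, a repressor of CLOCK and BMAL1 (-0.86 ± 0.24, adjusted p = 0.0151), and Bhlhe41 (-0.84 ± 0.26, adjusted p = 0.0250). Bhlhe41 was thus lower in perinates in all 3 comparisons. In the knockout comparisons, given without a test, the largest differences of the list in perinates were those of Ciart (-0.97 ± 0.24), Bhlhe41 (0.92 ± 0.26), Tipin (0.77 ± 0.23), Rora (-0.69 ± 0.17) and Usp2 (-0.57 ± 0.14), and in adults that of Bhlhe40 (0.93 ± 0.40).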

How the data were processed

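RNA of 17 samples was measured on Affymetrix Mouse Gene 1.0 ST arrays. The authors deposited linear intensities, 1 per probe set and array, which they made with Affymetrix Power Tools and RMA, per the submitters' processing notes. The versions and genome build were not stated in the sources used here, and 0 deposited value columns went unused. The platform annotation gave 1 symbol to 21425 of 24922 probe sets, several to 1399 and none to 2098. For a gene with several probe sets the one with the highest mean was used. Intensities were log2-transformed without a pseudocount.

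Groups came from the sample titles. Every difference was estimated in limma 3.58.1 (R 4.3.3; lmFit, contrasts.fit, eBayes), from the 6 group means of all 17 arrays together, with 11 residual degrees of freedom. The test is two-sided and its p-values were Benjamini-Hochberg adjusted over 13842 genes per comparison, with calls at an adjusted p under 0.05. The procedure was tested on simulated data. Precision is limited by how many arrays a group has.

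The clock genes, the other gene lists and the tests were chosen with earlier results of these data known. Besides the clock genes, the text names the called genes of a wider clock list with the largest differences (at most 5 a comparison) and the 10 genes most like Nr1d1. The labels do not say whether adult WT samples of the same number pair across the sorts. Their deviations from the group means correlated over all genes at 0.50, 0.44 and 0.19 for numbers 6, 7 and 8. Different numbers gave -0.44 to 0.10. Over the 10 clock genes GFP+ array 7 correlated more with GFP- array 8 (0.92) than with GFP- array 7 (0.54). A pairing was therefore tried only as an alternative. No hour of collection enters the model. Calls of Nr1d1 between the sorts are counted in the closing section and described in the report, since they share arrays with its choice. Alternatives changed the normalization, the filter, the choice of probe set, the array weights, the samples fitted, the pairing and the arrays left out, and 2 of them, perinate KO array 1 alone and both adult WT arrays numbered 6 left out, were added after the data were seen. Promoters come from RefSeq (GRCm38.p6), matched by symbol for 9 of the 10 clock genes.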

Additional observations from a re-analysis of the deposited data

How the results depend on the processing

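Under the alternatives, 0 called values changed sign. Of 1123 values of single genes 1064 kept their side of the threshold or, where not tested, moved by less than the spread of replicates. Values that passed in neither fit could change sign and still count among these. One was Cry1 between the sorts of WT perinates, at -0.35 to 0.50 over the alternatives. The clock genes called between the sorts of WT adults numbered 5 with Nr1d1 included, 3 to 5 when 1 array was left out, 3 without both arrays numbered 6, 6 with array weights, 6 with only the compared groups and 4 with the filter at the 60th percentile, which does not test Per3. The replicate block over adult WT numbers kept 5, and this block changed no call of the 10 genes there. Those called between the sorts of WT perinates numbered 3, and 2 or 3 under each alternative run. The change of the sort difference with age called 0 of 10, against 1 after quantile normalization (Nr1d1) and 0 to 2 when 1 array was left out. The counts between the sorts and of their change with age include Nr1d1. Its choice used the WT GFP+ arrays, so its calls there are no support. Between the ages in WT GFP- cells 2 were called, against 1 with the filter at the 60th percentile, which does not test Per3, 1 with array weights, 0 with only the compared groups fitted, and 0 to 2 with 1 array left out. In WT GFP+ cells 0 of 9 were called, against 3 after quantile normalization, 1 with median centring, 3 with array weights, 2 with only the compared groups, 3 without both arrays numbered 6, and 0 to 2 with 1 array left out. In KO GFP+ cells 1 of 9 was called, against 2 with array weights and 0 to 1 with 1 array left out. The replicate block over KO numbers, which only share a number (correlations of 0.05, 0.04 and 0.06), gave 1. The change of the knockout effect of Nr1d1 with age was -2.08, and -1.54 with perinate KO array 1 as the only perinate KO array. The causes of these changes were not tested.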

Other observations

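A list of 7 genes known to be induced by glucocorticoids, signals that also reset peripheral clocks, was measured in all groups. In GFP+ against GFP- cells 0 were higher and 0 lower in WT perinates, and 3 were higher and 2 lower in WT adults, where 43.5% and 44.9% of all genes were called. Perinates against adults had 1 higher and 2 lower in WT GFP- cells, 0 higher and 3 lower in WT GFP+ cells, and 0 higher and 3 lower in KO GFP+ cells (limma, adjusted p), where 46.4%, 22.2% and 26.0% of all genes were called.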
